A study of Homo sapiens with 6 samples.

Results

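The p53 target genes measured here were CDKN1A, MDM2, PHLDA3, FAS, TNFRSF10B, TP53INP1, TP53I3, SESN1, RRM2B and ZMAT3. They were taken as all probes that carry 1 of these 10 names on the array, which gave 18 probes of the 58201 probes for 43317 gene names. Of these, 14 probes for 9 genes were bright enough to test, among 27503 probes for 21697 gene names in all. The arrays compared 22RV1 cells, a human prostate carcinoma line that makes the secreted protease inhibitor SPINK1, after stable lentiviral introduction of a microRNA. The 2 microRNA lines carried pLemiR-338-5p or pLemiR-421, the control line carried pLemiR-RFP, and all of them were grown under puromycin selection. Each of the 6 arrays held RNA of a microRNA line in the dye Cy5 and control RNA in the dye Cy3, with 3 arrays for miR-338-5p (replicates 1, 2 and 3) and 3 for miR-421 (replicates 1 and 2 and a sample labelled as a pool, whose makeup the labels do not give). The dyes were never swapped, so a gene's dye bias and its response cannot be told apart in a comparison with control, whereas a bias common to all arrays cancels between the lines. The labels do not say whether the replicates, or the control RNA of each array, came from separate cultures. The p-values thus measure the spread of the ratios between these arrays, which may be technical. If the same control RNA served all arrays, they leave out the spread between control cultures.

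The tumour suppressor p53 is a transcription factor that is held at a low level by MDM2, which is itself a p53 target and closes a feedback loop. When DNA damage or another stress stabilises p53, it binds pairs of a 10-base motif and raises genes that stop the cell cycle, repair damage, buffer oxidative stress or promote cell death. Several of these genes also answer to other inputs, such as ATF4 and CHOP in the stress response of the endoplasmic reticulum and of amino acid shortage. Because the arrays measured bulk RNA, fewer cells with a transcript and less RNA per cell cannot be told apart.

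The agents that distinguish the lines are shown first, as mature sequences from RefSeq (GRCh38.p14), with the seed, bases 2 to 8, in capitals. The gene of hsa-miR-338-5p lies at chr17:81125923-81125944 and that of hsa-miR-421 at chrX:74218392-74218414, in mature coordinates and both on the minus strand. The seeds differ, so the lines do not share a seed family.
hsa-miR-338-5p: aACAAUAUccuggugcugagug
hsa-miR-421: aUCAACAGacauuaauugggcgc

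The search for p53 sites left out TNFRSF10B, RRM2B and TP53INP1, and PHLDA3 had no start window on hand, so the shares below do not cover these genes. It used RefSeq start windows, each of 300 bases, of the other 6 of the 10 genes, 14 windows in all. The p53 decamer (the consensus unit of a p53 site, which reads the same on both strands) was searched in them exactly, and as a pair 0 to 13 bases apart with at most 1 mismatch in each and the core C and G kept. An exact decamer stood in 2 of the 14 windows (14.3%), at an internal FAS start and an internal SESN1 start, against 6.63% of 35116 windows of all genes. The near-match pair stood in 2 of the 14 windows (14.3%), both at the internal promoter of MDM2 and overlapping each other, against 1.84% of all windows. The 250 bases before 3 starts are printed, with matches in capitals: CDKN1A, which rose in the miR-421 line and has no match here; MDM2, whose window holds the pair; and SESN1, whose window holds an exact decamer and whose transcript did not pass the test in either line. The stretches lie at chr6:36678464-36678713 (plus strand), chr12:68808767-68809016 (plus strand) and chr6:109008989-109009238 (minus strand) of GRCh38.p14. CDKN1A's known p53 sites lie further upstream than this window.
CDKN1A: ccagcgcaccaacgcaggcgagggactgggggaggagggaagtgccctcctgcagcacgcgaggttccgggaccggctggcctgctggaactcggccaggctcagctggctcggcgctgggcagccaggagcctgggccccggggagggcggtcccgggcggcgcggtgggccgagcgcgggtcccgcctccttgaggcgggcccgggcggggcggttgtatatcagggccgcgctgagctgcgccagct
MDM2: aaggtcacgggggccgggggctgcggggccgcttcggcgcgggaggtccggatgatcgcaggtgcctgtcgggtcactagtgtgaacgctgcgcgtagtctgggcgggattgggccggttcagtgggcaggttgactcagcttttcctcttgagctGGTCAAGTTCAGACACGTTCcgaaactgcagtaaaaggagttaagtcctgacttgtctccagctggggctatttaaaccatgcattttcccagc
SESN1: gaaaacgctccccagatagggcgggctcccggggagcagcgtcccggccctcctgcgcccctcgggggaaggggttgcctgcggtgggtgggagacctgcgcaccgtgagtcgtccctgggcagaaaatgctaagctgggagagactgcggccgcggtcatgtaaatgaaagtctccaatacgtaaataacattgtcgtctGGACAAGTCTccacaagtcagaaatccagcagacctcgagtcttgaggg

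Each value below is a log2 ratio of the microRNA line over control, after background correction and normalization within the array, given as mean ± SD over 3 arrays. A gene was represented by its brightest tested probe, and called changed at an adjusted p under 0.05 (limma, Benjamini-Hochberg over all probes tested, two-sided). In the miR-421 line 3 of the 9 genes passed: TNFRSF10B and CDKN1A rose and RRM2B fell, 33.3% of the members against 22.7% of all genes tested. Of all genes 10% rose and 12.6% fell in that line. In the miR-338-5p line none of the 9 genes passed with limma, against 9.25% of all genes, and none had an unadjusted p under 0.05, against 27.7% of all genes. Every one of the 18 alternatives to the processing also gave 0 members there. The member median was 0.09 in both lines, against -0.00066 and 0.0062 for all genes, and on single arrays it lay between 0.05 and 0.14. Centring each array on its median in place of the loess curve turned the miR-338-5p median to -0.04. ZMAT3, which encodes an RNA-binding zinc finger protein, had 1 probe, and it stayed too dim to measure on all 6 arrays, in Cy3 as in Cy5.

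**Figure D1:**
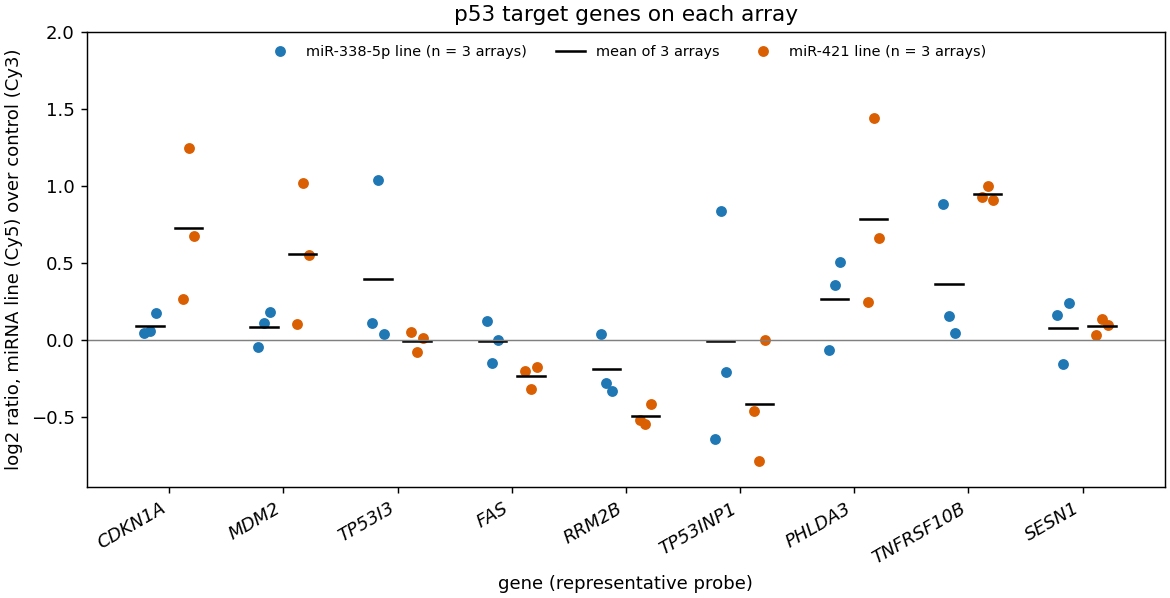
The log2 ratio of each microRNA line over control (vertical axis) for the 9 tested p53 target genes (horizontal axis, representative probe), 1 point per array and a black bar for the mean of 3 arrays. TNFRSF10B in the miR-421 line is the tightest high group, at 0.91 to 1.00, and the miR-421 points of CDKN1A, MDM2 and PHLDA3 spread widely above 0.

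Among the genes of arrest and feedback, CDKN1A rose in the miR-421 line and MDM2 and PHLDA3 missed the threshold. CDKN1A encodes p21, the cyclin-dependent kinase inhibitor through which p53 stops the cell cycle. Its probe lies at chr6:36652178-36652237 (hg19, plus strand, accession NM_078467). The miR-338-5p arrays read 0.05, 0.06 and 0.18, and the miR-421 arrays read 0.27 for the pool, 1.25 for replicate 1 and 0.68 for replicate 2. All 6 arrays were above 0 and the lines did not overlap, but the pool stood close to the highest miR-338-5p array. The means were 0.09 ± 0.07 (SD, n = 3, limma adjusted p = 0.778) and 0.73 ± 0.49 (SD, n = 3, limma adjusted p = 0.033), the latter a 1.66-fold rise.

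The CDKN1A probe was dim, which sets how far its size can be read. Spot minus local background was 19.0 to 28.2 units in Cy3 over the 6 arrays, on a background of 20 to 23. In Cy5 it was 16.8 to 29.0 on the miR-338-5p arrays and 39.4, 85.7 and 70.7 on the miR-421 pool, replicate 1 and replicate 2. The rise is thus visible in the Cy5 signal of the miR-421 line itself, while the control signal lay between 19.5 and 22.7 units on those 3 arrays. Its size followed the background step: 1.15 with no background correction, 1.79 with local background subtracted and 1.84 in both the ratio of the image software and the authors' deposited table, since the offset of 50 added here pulls ratios of dim spots towards 0. The call held in 11 of 18 alternatives, with adjusted p from 0.0111 to 0.123. It was lost without any 1 of the miR-338-5p arrays (adjusted p = 0.0506 to 0.0598), without miR-421 replicate 1 (0.47, adjusted p = 0.0567) and without replicate 2 (0.76, adjusted p = 0.123). It was also lost with no filter on dim probes (limma adjusted p = 0.0672) and with the miR-421 arrays fitted alone (0.0919).

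**Figure D2:**
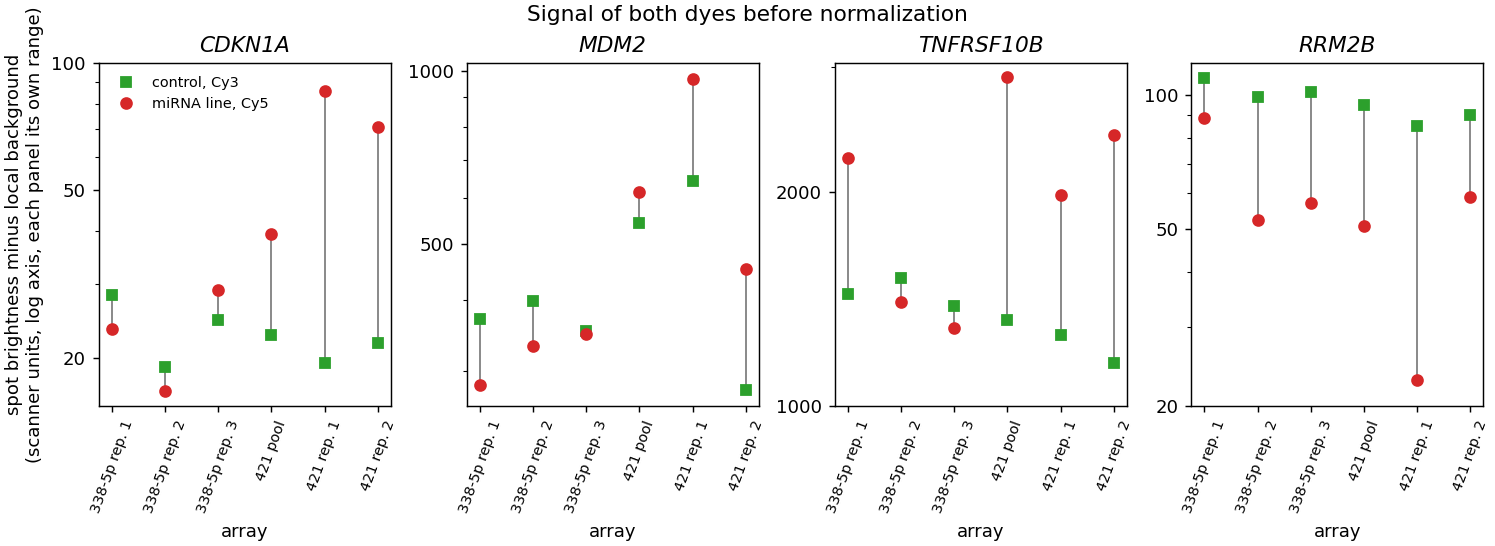
Spot brightness minus local background (vertical log axis, scanner units, its own range in each panel) of control RNA in Cy3 (green squares) and microRNA line RNA in Cy5 (red circles) on each of the 6 arrays (horizontal axis), for the representative probes of CDKN1A, MDM2, TNFRSF10B and RRM2B before normalization. The control squares of TNFRSF10B run from 1147 to 1513, whereas those of MDM2 run from 278 to 643.

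MDM2 encodes the ubiquitin ligase that removes p53, and its 3 probes did not move alike. The brightest, at chr12:69233570-69233629 (hg19, plus strand, accession NM_002392), read -0.04, 0.12 and 0.18 on the miR-338-5p arrays. On the miR-421 arrays it read 0.10 for the pool, 1.02 for replicate 1 and 0.56 for replicate 2, so the lines overlapped. The means were 0.09 ± 0.11 and 0.56 ± 0.46 (SD, n = 3 each), with limma adjusted p of 0.79 and 0.057. The call in the miR-421 line was made in 4 of 18 alternatives, among them without the pool (0.79, adjusted p = 0.0288), and the authors' deposited table, which holds 1 value per gene name, gave 0.17. Its control signal varied more than that of any other member: spot minus background in Cy3 was 370, 398 and 352 on the miR-338-5p arrays and 544, 643 and 278 on the miR-421 pool, replicate 1 and replicate 2. The SD of its normalized control log2 level was 0.48, against 0.04 to 0.14 for the other 8 genes. The part of this variation in the ratios was not tested.

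The other 2 MDM2 probes stayed near 0 in the miR-421 line. The probe at chr12:69238891-69238950 read 0.24, 0.06 and 0.03 on the miR-338-5p arrays and -0.09, -0.27 and -0.03 on the miR-421 pool, replicate 1 and replicate 2. Every array of one line was above 0 and every array of the other below, with means of 0.11 ± 0.11 and -0.13 ± 0.12 and a difference of 0.24 that did not pass the test (limma adjusted p = 0.378). The probe at chr12:69233822-69233881 had a mean of 0.15 in the miR-338-5p line. In the miR-421 line its control signal was not well above background on any array and its Cy5 signal was so on 2 of 3, and the fitted value was 0.01 (limma adjusted p = 0.922).

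PHLDA3 encodes a small pleckstrin homology protein that opposes AKT signalling. Its brighter probe, at chr1:201435106-201435165 (hg19, minus strand, accession NM_012396), read -0.06, 0.36 and 0.51 on the miR-338-5p arrays. It read 0.25 for the miR-421 pool, 1.45 for replicate 1 and 0.67 for replicate 2, which was above 0 on every array but overlapped the other line. The means were 0.27 ± 0.30 and 0.79 ± 0.61 (SD, n = 3 each), with limma adjusted p of 0.517 and 0.0571. The miR-421 call was made in 7 of 18 alternatives, among them the authors' deposited table (1.01, adjusted p = 0.044) and the fit without the pool (1.06, adjusted p = 0.047). The dimmer probe read 0.07 to 0.37 on the 6 arrays, all above 0, with means of 0.21 in both lines and limma adjusted p of 0.148 and 0.101.

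In the miR-421 line CDKN1A, MDM2 and PHLDA3 were each highest on replicate 1, next on replicate 2 and lowest on the pool. GDF15, a secreted stress cytokine and p53 target outside the 10, took the same order at 2.77, 1.57 and 0.65. SESN1 took it too, close to 0. The other tested members did not: FAS, RRM2B, TP53INP1 and TP53I3 were lowest on replicate 1, and TNFRSF10B was lowest on replicate 2. The share of all genes with this order was not counted. Replicate 1 was also the array with the smallest share of spots well above background in Cy5, 41.9% against 46.8% to 48.3% on the other 5 arrays. The part of this in the order of the arrays was not tested.

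**Figure D3:**
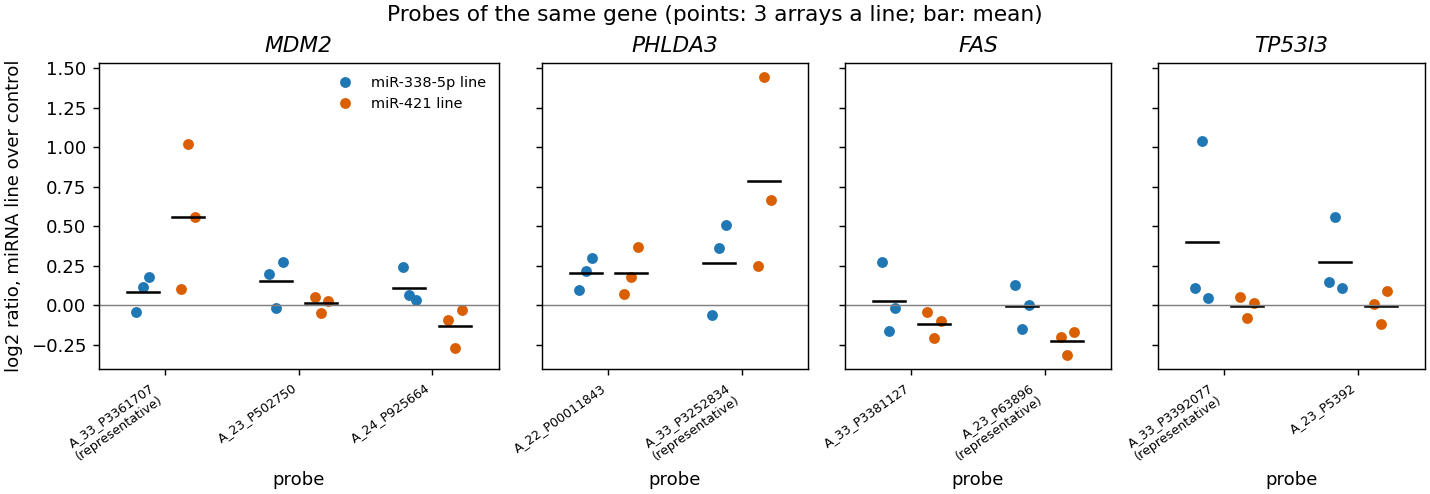
The log2 ratio over control (vertical axis) of each tested probe (horizontal axis) of the 4 genes with more than 1 tested probe, 1 point per array and a bar for the mean of 3 arrays. The brightest MDM2 probe stands at 0.10 to 1.02 in the miR-421 line, while the other 2 probes lie between -0.27 and 0.05.

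Among the death genes TNFRSF10B rose in the miR-421 line, and FAS and TP53INP1 did not pass in either line. TNFRSF10B encodes DR5, a death receptor for the ligand TRAIL, and is raised both by p53 and by CHOP. Its only probe lies at chr8:22877776-22877835 (hg19, minus strand, accession NM_003842). It read 0.88, 0.16 and 0.05 on the miR-338-5p arrays and 0.93, 1.00 and 0.91 on the miR-421 pool, replicate 1 and replicate 2. The 3 miR-421 arrays stood close together and above every miR-338-5p array, of which replicate 1 came near them and the other 2 lay close to 0. The means were 0.36 ± 0.45 (SD, n = 3, limma adjusted p = 0.206) and 0.95 ± 0.05 (SD, n = 3, limma adjusted p = 0.0143), the latter a 1.93-fold rise with a 95% interval of 0.56 to 1.33 on the log2 scale.

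TNFRSF10B was bright, so its ratio depended little on the background step. Spot minus background in Cy3 was 1147 to 1513 over the 6 arrays, and in Cy5 it was 2898, 1977 and 2406 on the miR-421 pool, replicate 1 and replicate 2. The value lay between 0.92 and 1.11 in all 18 alternatives and the call held in 15 of them. The exceptions were the fits without 1 miR-421 array, where 2 arrays remained: adjusted p was 0.0506 without the pool, 0.0529 without replicate 1 and 0.0773 without replicate 2. DDIT3, which encodes CHOP, and ATF3, both named after their values were seen, rose in both lines: DDIT3 by 1.96 ± 0.20 and 1.32 ± 0.37, and ATF3 by 2.14 ± 0.23 and 1.79 ± 0.43 (SD, n = 3 each), in the miR-338-5p and miR-421 lines. Their limma adjusted p-values were 0.00504 and 0.0061 for DDIT3 and 0.00559 and 0.00421 for ATF3. Their part in the TNFRSF10B values was not tested.

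FAS encodes the CD95 death receptor. Its brightest probe, at chr10:90774545-90774604 (hg19, plus strand, accession NM_000043), read 0.13, -0.15 and 0.0032 on the miR-338-5p arrays and -0.20, -0.31 and -0.17 on the miR-421 pool, replicate 1 and replicate 2. All 3 miR-421 arrays were below 0 and below every miR-338-5p array. The means were -0.01 ± 0.14 and -0.23 ± 0.08 (SD, n = 3 each), and neither passed (limma adjusted p of 0.968 and 0.0636). The second tested probe overlaps the first by position and gave 0.03 and -0.12. The remaining FAS probe was too dim to test.

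TP53INP1 encodes a nuclear protein that takes part in p53-dependent death and in autophagy. Its tested probe, at chr8:95938694-95938753 (hg19, minus strand, accession NM_033285), read -0.64, 0.84 and -0.20 on the miR-338-5p arrays, replicate 2 going against the other 2. It read -0.46, -0.78 and 0.0027 on the miR-421 pool, replicate 1 and replicate 2. The means, -0.0018 ± 0.76 and -0.41 ± 0.39 (SD, n = 3 each), had limma adjusted p of 0.998 and 0.349, and the miR-338-5p mean ran from -0.42 without replicate 2 to 0.32 without replicate 1. Its interval in that line, -0.70 to 0.70, allows a sizeable change either way.

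Among the genes of metabolism and repair RRM2B, a gene that p53 is known to raise, fell in the miR-421 line, and SESN1 and TP53I3 stayed near 0 there. RRM2B encodes p53R2, the ribonucleotide reductase subunit that supplies deoxynucleotides for repair. Its brighter probe lies at chr8:103217175-103217234 (hg19, minus strand, accession NM_015713). It read 0.04, -0.28 and -0.33 on the miR-338-5p arrays and -0.51, -0.54 and -0.41 on the miR-421 pool, replicate 1 and replicate 2. Every miR-421 array lay below every miR-338-5p array. The means were -0.19 ± 0.20 (SD, n = 3, limma adjusted p = 0.218) and -0.49 ± 0.07 (SD, n = 3, limma adjusted p = 0.0153), the latter 0.712 of the control level, with a 95% interval of -0.69 to -0.28.

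Spot minus background of RRM2B was 85.1 to 109 units in Cy3 over the 6 arrays and 50.7, 22.9 and 58.9 in Cy5 on the miR-421 pool, replicate 1 and replicate 2. The fall was larger where less was added to dim spots, -0.88 with local background subtracted and -0.93 with the ratio of the image software. The call held in 15 of 18 alternatives and was lost without the pool (adjusted p = 0.0574), without replicate 1 (0.0567) and without replicate 2 (0.0712), each of which leaves 2 miR-421 arrays. The other RRM2B probe was not well above background on any array.

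SESN1 encodes sestrin 1, which links p53 to lower mTORC1 signalling and to redox defence. Its only probe, at chr6:109308477-109308536 (hg19, minus strand, accession NM_014454), read 0.16, -0.15 and 0.24 on the miR-338-5p arrays and 0.04, 0.14 and 0.10 on the miR-421 pool, replicate 1 and replicate 2. The lines overlapped, and the means of 0.08 ± 0.21 and 0.09 ± 0.05 (SD, n = 3 each) had limma adjusted p of 0.598 and 0.477. Under the reported processing the miR-421 interval ran from -0.11 to 0.30, so a rise as large as that of CDKN1A or TNFRSF10B lies outside it. The size followed the background step here too: the miR-421 mean was 0.28 with local background subtracted and 0.32 with the ratio of the image software.

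TP53I3 encodes PIG3, a quinone oxidoreductase used as a marker of p53-driven oxidative stress. Its brighter probe, at chr2:24300504-24300563 (hg19, minus strand, accession NM_004881), read 0.11, 1.04 and 0.04 on the miR-338-5p arrays and 0.05, -0.08 and 0.01 on the miR-421 pool, replicate 1 and replicate 2. Replicate 2 of miR-338-5p stood alone, with 79.4 units over background in Cy5 against 15.7 and 14.9 on replicates 1 and 3. The other probe was likewise highest there, at 0.56 against 0.15 and 0.11. On that probe control RNA was not well above background on any miR-338-5p array. With control set no lower than the lowest signal well above background, the mean over the 3 arrays was 1.20-fold. The fitted log2 ratio was 0.27 and did not pass (limma adjusted p = 0.149). This probe entered the test only through its Cy5 signal on the miR-338-5p arrays, so the filter favoured a high value there. Its fit is therefore no separate support for a rise. The brighter probe's means were 0.40 ± 0.56 and -0.0040 ± 0.07 (SD, n = 3 each), with limma adjusted p of 0.249 and 0.991.

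The difference between the lines was tested in the same fit, and none of the 9 genes passed with limma, against 0.0461% of all genes tested. Without adjustment 3 had p under 0.05 (CDKN1A, TNFRSF10B and RRM2B), against 14.3% of all genes. CDKN1A was 0.64 lower in the miR-338-5p line than in the miR-421 line on the log2 scale (difference -0.64, 95% interval -1.23 to -0.05, limma adjusted p = 0.335). TNFRSF10B had a difference of -0.58 (limma adjusted p = 0.339) and RRM2B one of 0.30 (limma adjusted p = 0.352). The 3 arrays of each line did not overlap for 4 of the 9 genes (those 3 and FAS), against 20% of the genes measured on all arrays. So the 3 genes called in the miR-421 line alone are not shown to differ between the lines.

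**Figure D4:**
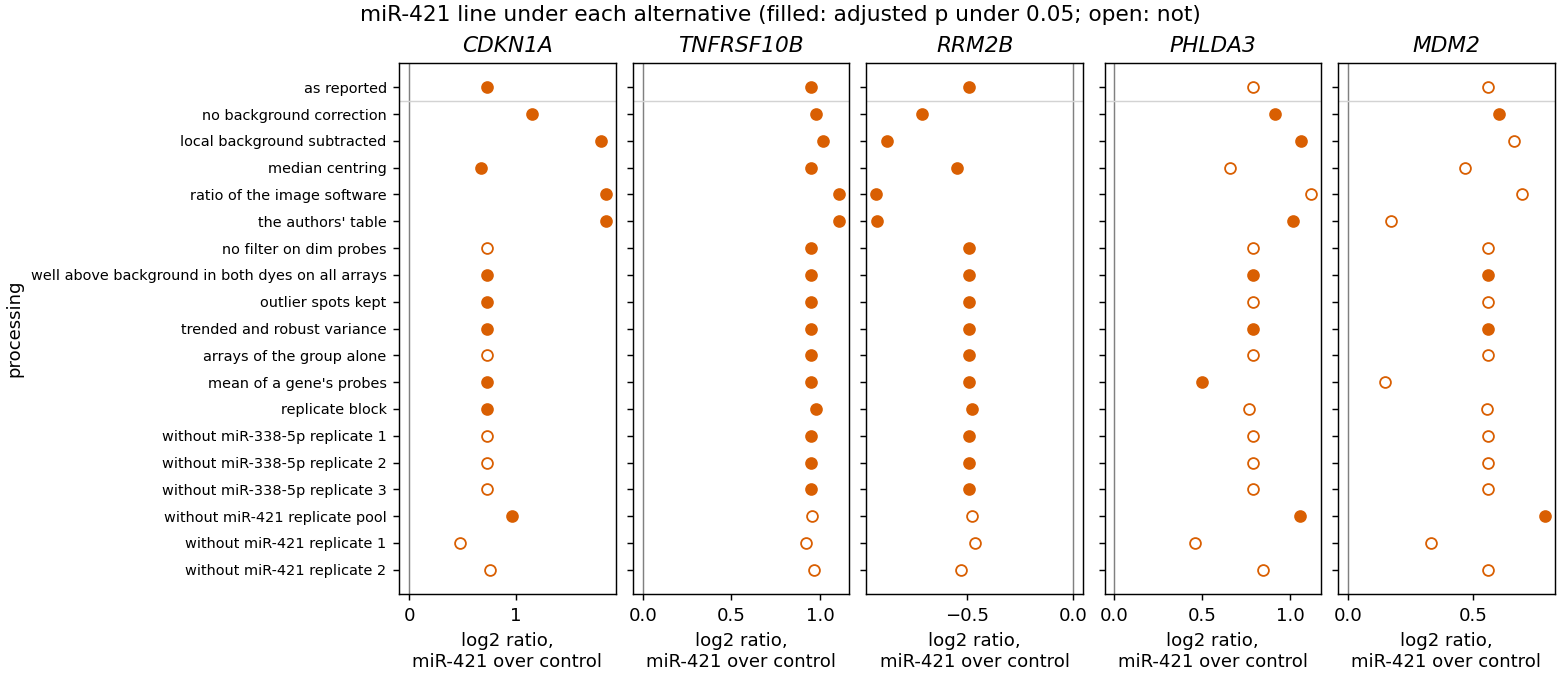
The log2 ratio of the miR-421 line over control (horizontal axis, its own range in each panel) for 5 p53 target genes under the reported processing (top row) and 18 alternatives (other rows); filled points have an adjusted p under 0.05 and open points do not. TNFRSF10B keeps to 0.92 to 1.11, CDKN1A runs from 0.47 to 1.84, and PHLDA3 and MDM2 are open in the top row.

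The wider p53 pathway was followed through 5 further lists of genes. The shares over all genes tested, against which their counts are read, were 3.99% higher and 5.26% lower in the miR-338-5p line (9.25% in all) and 10% higher and 12.6% lower in the miR-421 line (22.7% in all). Of 16 tested regulators of p53, none rose and 2 fell in the miR-338-5p line, while 1 rose and 2 fell in the miR-421 line. That is 12.5% of the list against 9.25% of all genes in the first line and 18.8% against 22.7% in the second. ATR, the kinase of stalled replication forks, fell by 0.67 in the miR-338-5p line and by 0.96 in the miR-421 line, and CHEK2, a checkpoint kinase, fell by 0.68 and by 0.59. CDKN2A, whose locus encodes the MDM2 inhibitor ARF as well as the CDK inhibitor p16, rose by 0.37 in the miR-421 line (limma adjusted p = 0.0253). The medians of the list were 0.04 and -0.10.

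Of 17 further cell cycle and feedback targets, 1 rose and none fell in the miR-338-5p line, and 2 rose and 2 fell in the miR-421 line. These are 5.88% of the list against 9.25% of all genes and 23.5% against 22.7%. GDF15 had 1.67 ± 1.06 in the miR-421 line (SD, n = 3, limma adjusted p = 0.038), and TGFA, a ligand of the EGF receptor, had 0.22 in both lines. MDM4, the partner of MDM2 in restraining p53, fell by 0.69 and E2F7, a repressor of E2F targets, fell by 1.00 in the miR-421 line. MDM4 was at -0.21 on the pool, -1.13 on replicate 1 and -0.72 on replicate 2. The list medians were 0.05 and 0.15.

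Of 14 further death genes, 1 rose and 1 fell in the miR-338-5p line and 1 rose and 2 fell in the miR-421 line, 14.3% of the list against 9.25% of all genes and 21.4% against 22.7%. PMAIP1, the BH3-only protein NOXA, rose in the miR-338-5p line (0.64 ± 0.09, SD, n = 3, limma adjusted p = 0.0073) and read 0.16 ± 0.08 in the other. BBC3, the BH3-only protein PUMA, rose in the miR-421 line (0.90 ± 0.28, SD, n = 3, limma adjusted p = 0.00672) and read 0.45 ± 0.08 in the other (limma adjusted p = 0.0548). The differences between the lines, 0.48 for PMAIP1 and -0.45 for BBC3, did not pass (limma adjusted p = 0.123 and 0.283). TNFRSF10D, a decoy receptor for TRAIL, fell by 1.27 in the miR-338-5p line and by 0.92 in the miR-421 line. BAX, the pore-forming death effector, read -0.44 and -0.49 and passed in neither (limma adjusted p = 0.406 and 0.284).

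Of 19 further genes of repair and metabolism, 1 rose and 2 fell in the miR-338-5p line and 4 rose and 1 fell in the miR-421 line, 15.8% of the list against 9.25% of all genes and 26.3% against 22.7%. SESN2, the sestrin raised by both p53 and ATF4, rose in both, at 0.91, 0.94 and 1.17 on the miR-338-5p arrays and 1.09, 1.27 and 1.33 on the miR-421 arrays. Its means were 1.01 ± 0.14 and 1.23 ± 0.13 (SD, n = 3 each; limma adjusted p = 0.00558 and 0.00228), and both calls held in all 18 alternatives. The miR-421 line also had higher TSKU (1.21), PLXNB2 (0.74) and DDB2 (0.55, the damage sensor of nucleotide excision repair), the last named after its value was seen, and POLH, the translesion polymerase, fell by 0.59. In the miR-338-5p line DRAM1, an autophagy regulator, fell by 0.76 and NINJ1 fell by 0.30.

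Of 16 genes that p53 is known to lower through p21 and the DREAM repressor complex, 4 fell and none rose in the miR-338-5p line, and 3 fell and 2 rose in the miR-421 line. The list's shares were 25% against 9.25% of all genes in the first line and 31.2% against 22.7% in the second. CDK1, the kinase of mitotic entry, fell by 0.59 and by 1.09, CCNA2, cyclin A2, fell by 0.76 and by 0.80, and the checkpoint kinase gene CHEK1 fell by 0.43 and by 0.35. MYBL2, a cell cycle transcription factor, fell by 0.37 in the miR-338-5p line and rose by 0.45 in the miR-421 line, where the mitotic kinase PLK1 also rose by 0.43. The list medians were -0.32 and -0.26, with 5 and 6 of the 16 genes above 0. CDKN1A read 0.09 in the miR-338-5p line and 0.73 in the miR-421 line, and its part in the values of this list was not tested. In the difference between the lines none of the 82 tested genes of the 5 lists passed with limma, against 0.0461% of all genes, and 13 (15.9%) had an unadjusted p under 0.05, near the 14.3% of all genes. Of the calls named from these lists, SESN2 in both lines and CDK1 in the miR-421 line held in all 18 alternatives. BBC3 held in 17, PMAIP1 in 16 and GDF15 in 11, whereas MDM4 held in 7. TNFRSF10D held in 9 in the miR-338-5p line and 8 in the miR-421 line, TGFA in 4 and 6, and CHEK1 in 5 in each. In the miR-338-5p line MYBL2 held in 4, ATR and NINJ1 in 6, DRAM1 in 7 and CDK1 in 8. The other calls named, apart from DDB2, for which alternatives were not run, held in 10 to 17.

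**Figure D5:**
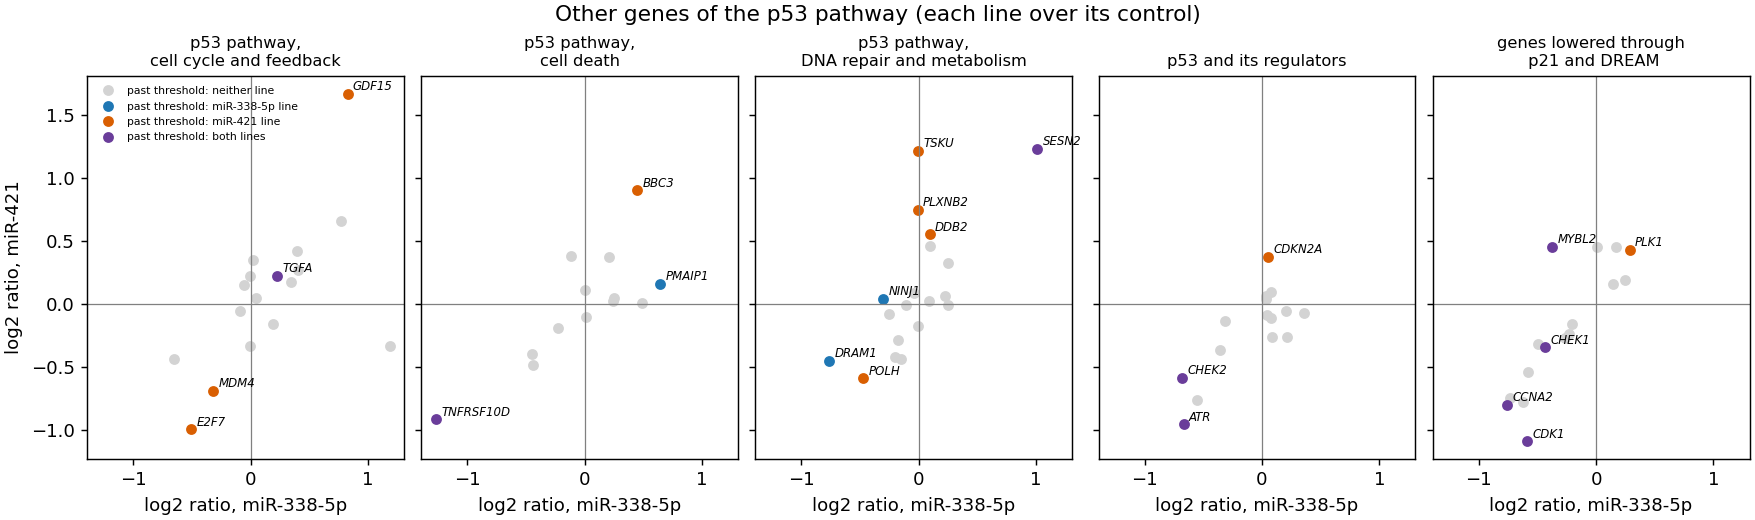
Log2 ratio over control in the miR-338-5p line (horizontal axis) against the miR-421 line (vertical axis) for the tested genes reported here from the 5 other p53 pathway lists, 1 point per gene, coloured by the line or lines in which the gene passed an adjusted p of 0.05. The axes compare each line with control RNA and the arrays of the lines are separate; SESN2 stands at 1.01 and 1.23 and MYBL2 at -0.37 and 0.45.

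The 3 genes whose 6 log2 ratios lay nearest to those of CDKN1A, by root mean square difference among 21590 genes, were named on the array lnc-PCDH9-3 (0.07), ENST00000444848 (0.08) and XLOC_l2_003758 (0.09). Each had its highest ratio on miR-421 replicate 1, at 1.33, 1.28 and 1.05, which follows from picking them for likeness to CDKN1A. This is a description of 6 arrays.

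The arrays were checked as a whole. The prostate epithelial markers KLK2, KLK3, HOXB13, KRT8, KRT18 and EPCAM were well above background in both dyes on all 6 arrays. Of the fibroblast markers, COL1A2 and COL3A1 were so on none, whereas COL1A1 was so on all 6 in both dyes. DCN was so on 6 arrays in Cy3 and 5 in Cy5, and PDGFRB on 3 and 2. The immune markers PTPRC, CD3E and CD14 were so on all 6 arrays in both dyes. The flag therefore does not tell cell types apart here. KRT8 fell by 1.31 in the miR-338-5p line, and in the miR-421 line EPCAM fell by 0.90 and KRT18 rose by 0.97. Between 41.9% and 48.3% of the gene spots were well above background per array and dye, and no gene spot was flagged saturated. The log2 ratios of any 2 arrays correlated at 0.338 to 0.823 over probes, all positive. Pairs within the miR-338-5p line gave 0.478 to 0.613, pairs within the miR-421 line 0.637 to 0.823 and pairs between the lines 0.338 to 0.594. The dyes were never swapped, so these values include whatever is common to all arrays.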

How the data were processed

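RNA of 22RV1 lines was measured on 6 two-colour Agilent arrays, read with Feature Extraction 11.5.1.1 on hg19 probe positions, per the file headers. Per the labels' protocols, poly(A) tails were added before oligo-dT priming. The deposited scanner files hold spot and background intensity in each dye, the log10 ratio of Cy5 over Cy3 after the software's background subtraction and dye normalization, per the file headers, and flags of 0 or 1. A deposited table of log2 ratios by gene name, whose normalization is not given in the sources used here, served as an alternative; per array it correlated at 0.962 to 0.98 with the software ratio (slope 0.981 to 0.993, medians -0.163 to 0.0339), which gives its direction and scale, not its centring.

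From the intensities, normexp background correction (offset 50) and loess within each array (control spots weight 0) were run in limma 3.58.1 (R 4.3.3). The 60901 gene spots, outlier spots left out, were averaged to 58201 probes, and 27503 probes were tested, those flagged well above background, in Cy3 or Cy5, on 3 or more of 6 arrays. A fit over all 6 arrays gave each line's mean against 0 and their difference, with Benjamini-Hochberg adjustment at 0.05. Fold bounds for dim channels were set from the lowest signal well above background on the array. Named genes were all 10 members, up to 3 rises and 3 falls per list among genes past the threshold with the same sign on all 3 arrays, and MDM4, BBC3, BAX and GDF15; some items the rule covers are not reported here. The members and lists were chosen with earlier results of these data known. Scripts were tested on simulated data. All arrays share 1 slide, so no batch could be tested. Of the 18 member probes 17 had an accession matched in RefSeq, all with the same symbol. The number of arrays limits the precision.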

Additional observations from a re-analysis of the deposited data

Results flagged for a closer look

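Results for 2 genes drew attention because every array of one line lay on one side of 0 and every array of the other line on the other side. For the distal MDM2 probe (A_24_P925664) the difference was 0.242 on the log2 scale, higher in the miR-338-5p line, and did not pass the test (limma adjusted p = 0.378). For MYBL2 the difference was -0.826, lower in the miR-338-5p line (-0.32, -0.52 and -0.29) than in the miR-421 line (0.27, 0.60 and 0.49), and did not pass the test (limma adjusted p = 0.084). Among the control signals of the 14 tested member probes over 6 arrays, no array stood apart by Dixon's criterion.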

How the results depend on the processing

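The miR-338-5p line and the difference between the lines had 0 member genes past the threshold under all alternatives run. In the miR-421 line 3 members passed as reported, 5 with no background correction, 5 with probes well above background in both dyes on all arrays, 5 with a trended and robust variance, and 0 to 3 when 1 array was left out. For all probes, 2476 passed in the miR-338-5p line as reported, 1579 with local background subtracted, 1284 with median centring, 1093 with the ratio of the image software, 984 in the authors' deposited table, 1590 with no filter on dim probes, 214 with arrays of the group alone and 400 to 3650 without 1 array. In the miR-421 line 5950 passed as reported, 3877 with median centring and 629 to 5506 without 1 array. At the settings with 5 members, the count over all probes was 6908 with no background correction and 6961 with a trended and robust variance. It was 5574 with probes well above background in both dyes on all arrays, where fewer probes were tested. The difference had 13 probes as reported, 46 with no background correction, 2 with the ratio of the image software, 2 with median centring, 6 in the authors' deposited table, 20 with the mean of a gene's probes, 89 with a trended and robust variance and 0 to 4 without 1 array. The counts for the deposited table and for the mean of a gene's probes are of gene names, not probes. With no filter on dim probes, more probes were tested. Counts at these settings are thus not on the same total. Of the miR-338-5p calls 58% were lower as reported, against 82% with median centring, 45.5% with background subtracted, 45.8% with the software ratio and 44.2% in the deposited table.

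The replicate numbers shared by the lines did not pair the arrays (correlations of deviations -0.141 and -0.212), so the replicate block only shares a number: it gave 2663, 6013 and 0 probes, and 0, 3 and 0 members.

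Of 477 member values under alternatives, 23 changed sign, none of them called either way. Of 630 values of named list and marker genes, 201 lost the call. In the miR-338-5p line, FAS read 0.017 with no background correction, 0.0027 with the software ratio, 0.012 with the mean of its probes and -0.073 to 0.066 without 1 array. TP53INP1 there read 0.022 with no background correction, 0.027 with background subtracted, 0.054 with the software ratio, 0.055 in the deposited table, 0.0047 with the replicate block and -0.42 to 0.32 without 1 array. With median centring MDM2 and SESN1 there read -0.12 and -0.039. In the miR-421 line, TP53I3 read 0.039 with no background correction, 0.022 with the software ratio, 0.023 in the deposited table, 0.031 with the block and -0.032 to 0.033 without 1 array. The difference was 0.076 for MDM2 in the deposited table, 0.0095 for SESN1 with the block, -0.088 to 0.11 for SESN1 without 1 array and -0.0099 to 0.73 for TP53INP1 without 1 array. The cause of these changes was not tested. CDKN1A and TP53I3 were read near background, which limits how far their sizes can be read.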
